A study of Homo sapiens with 6 samples.

Results

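Oxidative phosphorylation genes were taken from the count table by their symbols. They are the rows that begin with Nduf, Uqcr, Cox4 to Cox8 or Atp5, together with Cyc1 and Sdha to Sdhd, and rows marked as pseudogenes by -ps were dropped. The rule found 95 of the 22989 genes listed, after 1 pseudogene row was left out. Of these, 40 belong to complex I, 4 to complex II, 9 to complex III, 17 to complex IV and 17 to complex V (ATP synthase), and 8 are complex I assembly factors. Ndufa4 and Ndufa4l2 are counted with complex IV, where Ndufa4 is now placed. The study describes the RNA as that of paclitaxel (PTX)-resistant MDA-MB-231 BCSC. These are cells of a human triple-negative breast cancer line that were sorted for high ALDH activity. The KD group holds 3 libraries in which an shRNA against the lncRNA LINC00115 was expressed, and the WT group holds 3 libraries that the labels call wild type. The labels number the KD libraries sh115-1 to sh115-3, whereas the study names sh115-2 for its RNA-Seq and a control shRNA, shC, for its other knockdown experiments. The study used these libraries to look for pathways that depend on LINC00115, and it followed the HIF1 pathway from there.

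Oxidative phosphorylation couples the oxidation of NADH and succinate to ATP synthesis in the inner mitochondrial membrane. Complexes I and II pass electrons to coenzyme Q, complex III passes them on to cytochrome c, complex IV reduces oxygen, and complex V uses the proton gradient built by complexes I, III and IV to make ATP. Each large complex has core and accessory subunits. Core subunits carry the redox centres, the catalytic head or the proton path or, in complex III, are the large core proteins Uqcrc1 and Uqcrc2. Accessory subunits are mostly small proteins around that core that help to stabilise it. In complex V the peripheral stalk is counted with the accessory subunits here. The core subunits of complex IV and part of those of complexes I, III and V are encoded in mitochondrial DNA. In hypoxia, HIF1 is known to adjust respiration through subunit isoforms. Cox4i2, which can take the place of Cox4i1, and the HIF1 target Ndufa4l2 are examples.

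The libraries held between 36979221 and 38799331 counts, and for 87 of the 95 genes no library had fewer than 100 counts. Symbols are those of mouse genes, 4648 of them with the Gm names and 1129 with the Rik names of mouse gene models. The cells are nevertheless labelled human, and the processing notes name a human genome. Which species the reads came from was not tested. Human coding lengths and promoters below were matched by name only. For 3 symbols, Ndufs6b, Ndufb4b and Ndufb4c, no human gene of that name was found in the reference used here, and their reads may be shared with Ndufs6 and Ndufb4. No row is named LINC00115, so the knockdown could not be checked and every direction below rests on the labels. The 13 subunits encoded in mitochondrial DNA are listed under names such as ND1 and COX1, fall outside the symbol rule and are described separately. Krt8, Krt18, Vim and Cd44 were well counted in all libraries, while Epcam had at most 5 counts. Krt8 (0.67), Krt18 (0.87) and Vim (0.13) were higher in KD on the log2 scale, and Cd44 did not pass the test. The ALDH gene Aldh1a1 had 12, 8 and 17 counts in WT and 52, 39 and 41 in KD, and was called higher (1.82 on the log2 scale, edgeR adjusted p 0.000925). Aldh1a3, the other ALDH gene among these markers, had 1, 0 and 0 counts in WT and 0, 0 and 4 in KD and was not tested. WT replicate 3 stood apart in basal keratins, with 92 counts of Krt5 against 0 in every other library. Its Krt14 counts were 192 against 7 to 31 elsewhere. Krt14 was called lower in KD (−1.55 on the log2 scale, edgeR adjusted p 0.0159), a decrease that rests on this library. WT replicates 1 and 2 had 7 and 30 counts of Krt14, and the KD libraries had 31, 28 and 19. Without WT replicate 3, 60 of the 90 oxidative phosphorylation genes tested were lower and 10 higher. In the KD libraries the summed level of 7 lung epithelial markers was 71.7 to 82.0 normalized CPM, against 1.57 to 1.77 in WT, with all 7 higher and 5 of them at 0 in every WT library. That of 8 kidney tubule markers was 41.2 to 45.3 against 16.7 to 19.5, with 7 of 8 higher. These markers move with the group, and their part in the results below was not tested. In bulk RNA, fewer cells with a transcript and less of it per cell cannot be told apart.

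As a group, the oxidative phosphorylation genes were lower in the KD libraries, and most of the genes that fell encode accessory subunits. The genes took 0.982%, 0.997% and 1.02% of all counts in the WT libraries and 0.799%, 0.786% and 0.804% in the KD libraries. The groups did not overlap, and the mean share fell by 0.202 percentage points. In normalized CPM, a gene's counts relative to the scaled library total, the sum over all 95 genes was 9685, 9942 and 10130 in WT and 8015, 7918 and 8119 in KD, which is 19.2% lower.

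Of the 95 genes, 90 had enough counts to be tested. The test was edgeR's quasi-likelihood test, with p-values adjusted over all genes after Benjamini and Hochberg and a threshold of 0.05. By it, 63 genes were lower in KD (70.0%), 10 were higher (11.1%) and 17 did not pass. Among all 13497 genes tested, 36.7% were lower and 36.7% were higher. The median log2 fold change was −0.39 over the 90 genes and −0.01 over all genes. With a fold change over 2 required as well, 6 genes were called lower, against a background of 9.98%, and 2 were called higher, against 10.2%. The share called lower was thus below that of all genes, and most decreases were smaller than a fold of 2. Every KD library lay below every WT library for 63 genes (background 37.8%) and above for 13 (background 37.8%). The labels do not say whether replicates came from separate cultures, so p-values measure only the spread between these libraries.

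**Figure D1:**
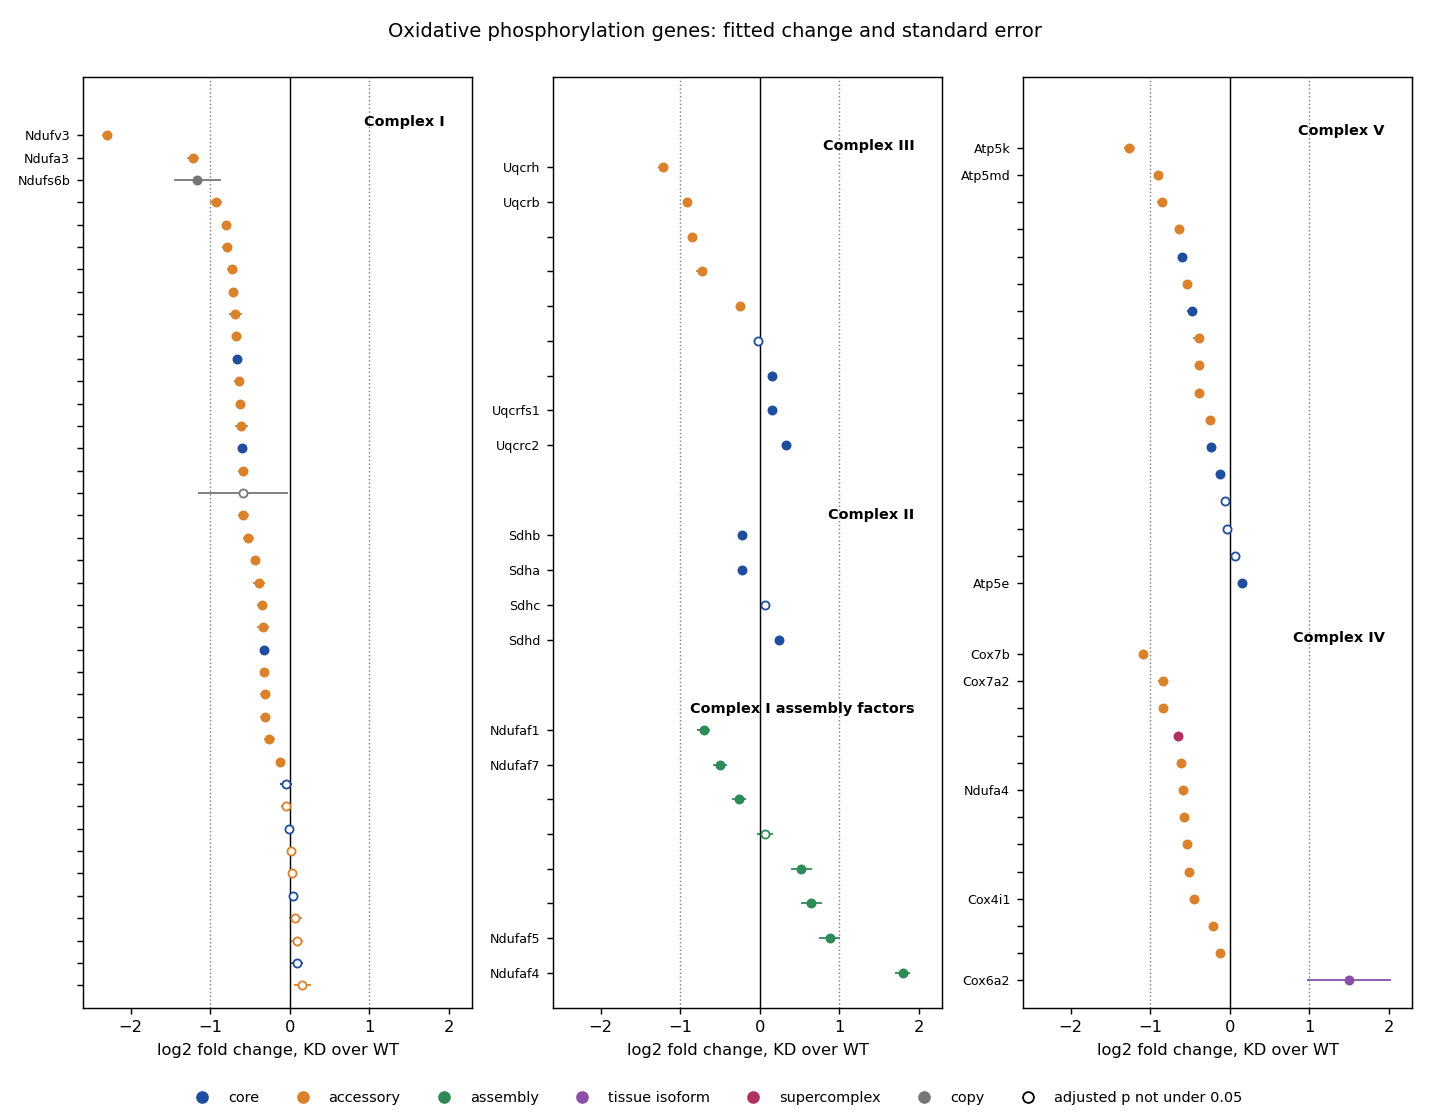
Fitted log2 fold change (KD over WT, x axis) of the 90 genes tested, ordered within each complex, with whiskers for the standard error. Genes chosen by the naming rule are labelled, colours give the class of subunit, open circles mark genes not past an adjusted p of 0.05, and dotted lines mark a fold change of 2. Ndufv3 (−2.30) and Ndufaf4 (1.80) lie at the extremes.

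The decrease was largest in complex IV and complex I and smallest in complex II. The summed level of complex IV fell from 1742 ± 29.9 to 1180 ± 4.18 normalized CPM (SD, n = 3 libraries each), or by 32.3%. That of complex I fell from 2509 ± 48.3 to 1855 ± 43.8, or by 26.1%. Complex V went from 3974 ± 125 to 3410 ± 36.8 (14.2% lower) and complex III from 1000 ± 23.8 to 885.5 ± 18.2 (11.5% lower). For complex II the sums were 583.7 ± 9.45 and 561.9 ± 2.63 (3.72% lower). In all 5 complexes every KD library lay below every WT library. The sum over the 8 complex I assembly factors went the other way, from 112.6 ± 5.01 to 126.1 ± 2.67, a net rise that rests on Ndufaf4. Without this gene, a setting added after the values were seen, the other 7 summed to 103.8 ± 4.53 in WT and 95.47 ± 3.13 in KD, and every KD library lay below every WT library. These sums are weighted toward the most abundant genes, and differences in size between complexes were not tested.

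**Figure D2:**
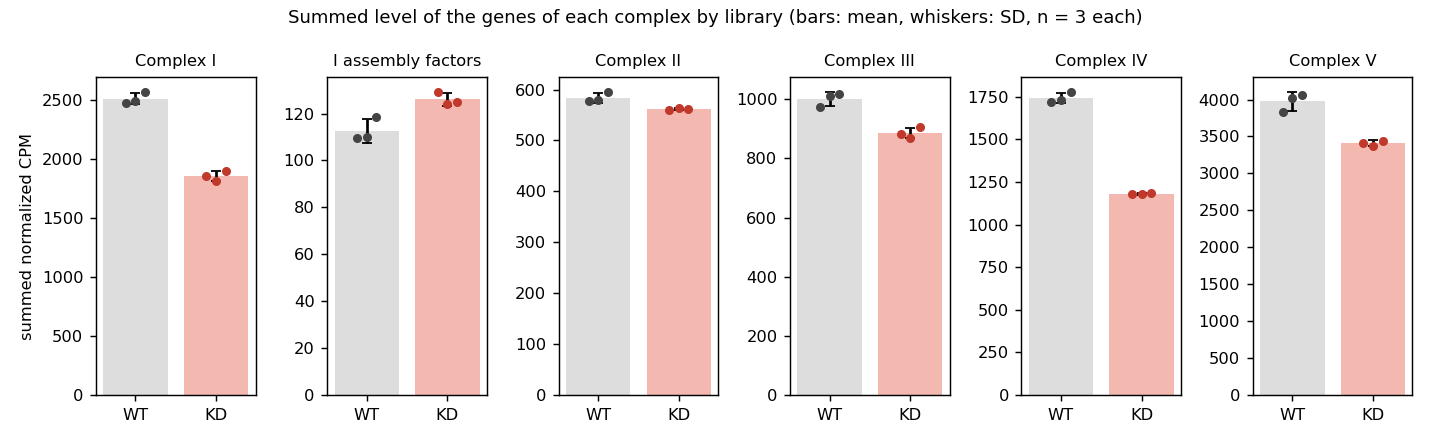
Summed normalized CPM of the genes of each complex in each library (points), with the mean (bars) and the SD (whiskers, n = 3 per group). Each panel has its own axis starting at 0. KD lies below WT in complexes I to V and above WT for the assembly factors, where the net rise rests on Ndufaf4.

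Complex I, the NADH dehydrogenase, had 28 of 39 tested genes lower (71.8%) and 0 higher in edgeR's test (background 36.7% each way). The median log2 fold change was −0.43. At an unadjusted p under 0.05 the number higher was also 0, and DESeq2 found 0. The largest decrease of all 95 genes was that of Ndufv3, an accessory subunit of the NADH-oxidising arm. Its level was 143.9, 134.5 and 137.5 normalized CPM in the WT libraries and 30.4, 25.8 and 28.2 in the KD libraries. All KD values were thus far below all WT values, with a log2 fold change of −2.30 ± 0.054 (SE, edgeR adjusted p 1.70e-28). Ndufa3, an accessory subunit of the membrane arm, was at 33.2, 33.1 and 32.8 in WT and at 13.7, 13.4 and 15.5 in KD, a log2 fold change of −1.22 (edgeR adjusted p 8.09e-16). The groups were again separate and the WT values nearly equal. Ndufs6b, which the table lists beside Ndufs6, had only 88, 142 and 96 counts in WT and 37, 40 and 69 in KD, and was called lower at −1.16 (edgeR adjusted p 0.000812). Without WT replicate 2 its log2 fold change was −0.92, and without KD replicate 1 it was −0.98, so the call at a fold change of 2 rests on single libraries. Ndufs6 itself, an accessory subunit, was at −0.30.

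The core subunits of complex I did not move as a block. Ndufs3, in the arm that leads to the quinone site, and Ndufv2, an iron-sulfur subunit of the NADH-oxidising arm, were lower, at −0.66 and −0.60. Ndufv1, which binds FMN and accepts the electrons of NADH, was at 61.2, 61.4 and 61.0 normalized CPM in WT and at 61.7, 62.3 and 64.9 in KD (log2 fold change 0.04, edgeR adjusted p 0.462). Ndufs1, the largest iron-sulfur subunit of the same arm, was at 107.5, 107.0 and 115.0 in WT and at 106.5, 111.8 and 110.4 in KD (0.00, edgeR adjusted p 0.944). Its groups overlapped, and those of Ndufv1 were separated by less than 1 normalized CPM. Thus 3 of the 7 core subunits of complex I were lower, with a median of −0.05. Their share, 42.9%, was near the background of 36.7% of all genes. Of the 30 accessory subunits 24 were lower (80.0%), with a median of −0.47. Among the accessory subunits, 11 of the 12 genes with Ndufa symbols (Ndufa4 and Ndufab1 aside) and 7 of the 12 tested genes with Ndufb symbols (copies included) were lower. After Ndufv3 and Ndufa3 the largest decreases of accessory subunits were those of Ndufa12 (−0.93), which sits close to the quinone-binding arm, Ndufa8 (−0.79) and Ndufb10 (−0.79). The 6 accessory subunits that did not pass were Ndufa10 (0.02), Ndufb1 (0.07), Ndufb2 (0.16), Ndufb4 (0.09), Ndufb7 (−0.05) and Ndufs4 (0.03), a subunit known from Leigh syndrome.

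Assembly factors of complex I, which help to build the complex and are not part of it, went in both directions, with 4 of 8 higher and 3 lower, shares of 50% and 37.5% that are near the background of 36.7% each way. Ndufaf4 had 7.54, 9.46 and 9.40 normalized CPM in WT and 30.3, 31.5 and 30.0 in KD. All KD values were more than 3 times as high as any WT value, with a log2 fold change of 1.80 ± 0.091 (SE, edgeR adjusted p 9.87e-19). Ndufaf5 followed, from 6.46 ± 0.97 to 11.9 ± 0.69 (SD, 3 libraries in each group), or by 0.88 on the log2 scale, and Ndufaf6 (0.65) and Ndufaf8 (0.52) were also higher. Ndufaf1, which acts on the membrane arm, fell from 28.1 ± 1.99 to 17.2 ± 0.75, a log2 fold change of −0.71. Ndufaf7, a methyltransferase, fell by 0.50 on the log2 scale, and Ndufaf2 by 0.26.

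Complex II, succinate dehydrogenase, is the only complex whose subunits are all encoded in the nucleus, and its 4 genes were split. Sdha, the flavoprotein, was at 265.2, 259.0 and 265.7 normalized CPM in WT and at 225.5, 229.4 and 225.7 in KD, a log2 fold change of −0.22 (edgeR adjusted p 1.06e-06). Sdhb, the iron-sulfur subunit, was at 96.6, 102.2 and 104.2 in WT and at 87.0, 86.4 and 87.3 in KD, also −0.22. Both subunits of the catalytic head were therefore lower, without overlap between the groups. Sdhd, a membrane anchor, was at 133.9, 136.1 and 141.4 in WT and at 161.3, 162.0 and 162.2 in KD, a log2 fold change of 0.24 (edgeR adjusted p 1.18e-06). Sdhc, the other membrane anchor, had values of 82.3, 81.2 and 83.2 in WT and 85.4, 86.6 and 87.0 in KD (0.07, edgeR adjusted p 0.159). Its groups did not overlap, but the difference did not pass the test.

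Complex III, the cytochrome bc1 complex, was divided along the line between core and accessory subunits. With Uqcrc1 and Uqcrc2 counted as core, all 5 accessory subunits were lower, with a median of −0.84, and their summed level fell from 410.9 ± 11.5 to 247.1 ± 6.30 normalized CPM. Of the 4 core subunits, 3 were higher and 0 were lower in edgeR's test, also at an unadjusted p under 0.05. The background is 36.7% of genes lower and 36.7% higher. The summed level of these core subunits was 589.3 ± 15.9 in WT and 638.3 ± 17.3 in KD. Uqcrh, the hinge protein at cytochrome c1, was at 85.7, 87.7 and 86.7 normalized CPM in WT and at 36.94, 36.96 and 37.68 in KD. Both groups were tight and far apart, with a log2 fold change of −1.22 ± 0.051 (SE, edgeR adjusted p 3.46e-21). Uqcrb, a small matrix-side subunit, fell from 98.3 ± 1.77 to 52.1 ± 3.28, a log2 fold change of −0.92. Uqcr10 (−0.84), Uqcr11 (−0.73) and Uqcrq (−0.25) were lower as well.

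Uqcrc2, a large core protein, was at 89.8, 88.4 and 94.1 normalized CPM in WT and at 118.3, 108.0 and 115.0 in KD, a log2 fold change of 0.33 (edgeR adjusted p 6.84e-08). Uqcrfs1, the Rieske iron-sulfur protein, was at 91.4, 102.6 and 94.1 in WT and at 111.1, 100.5 and 109.5 in KD (0.16, edgeR adjusted p 0.00402). For Uqcrc2 the groups were separate, whereas for Uqcrfs1 KD replicate 2 lay below WT replicate 2. Cyc1, cytochrome c1, was also higher (0.15), and Uqcrc1 was not past the threshold (−0.02, edgeR adjusted p 0.549). The split rests in part on the class of the large core proteins, since with these counted as accessory 5 of 7 accessory subunits were lower and 1 was higher. Uqcrh and the cytochrome c1 that it binds thus changed in opposite directions.

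Complex IV, cytochrome c oxidase, is represented among the 95 genes only by subunits around its catalytic core, which is encoded in mitochondrial DNA. Of its 17 genes 13 were tested, and 12 of these were lower (92.3%, background 36.7%). They are its 11 common nuclear subunits, with log2 fold changes between −1.09 and −0.12, and Cox7a2l, a factor that joins complexes III and IV into supercomplexes (−0.65). Cox7b fell most, with 127.3, 134.8 and 134.2 normalized CPM in WT and 64.9, 62.0 and 59.5 in KD, a log2 fold change of −1.09 ± 0.046 (SE, edgeR adjusted p 5.07e-21). It was followed by Cox7a2, from 75.8 ± 4.59 to 42.3 ± 0.14, at −0.84, and by Cox6b1 at −0.83. Every KD library lay below every WT library for each of these 12 genes, as for 37.8% of all genes tested. Between these lay Cox8a (−0.61), Ndufa4, Cox5b (−0.58), Cox6c (−0.53), Cox6a1 and Cox4i1, and Cox5a followed at −0.21. Cox7c had the smallest decrease (−0.12, edgeR adjusted p 0.0151), and its call was lost in 3 of 14 settings.

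A shift from Cox4i1 to Cox4i2, which is known from hypoxia, was not seen in either group, nor was one from Ndufa4 to Ndufa4l2. Cox4i1, the common form of subunit 4, had 249.3, 251.3 and 258.7 normalized CPM in WT and 186.2, 184.3 and 185.9 in KD, a log2 fold change of −0.45 (edgeR adjusted p 1.58e-13). Cox4i2 had 8, 1 and 1 counts in the WT libraries and 0, 3 and 0 in the KD libraries. Its share of the pair's counts was at most 0.0851% in any library. Ndufa4, an inner-membrane subunit first assigned to complex I, was at 165.4, 153.8 and 169.4 in WT and at 108.4, 113.6 and 104.5 in KD, a log2 fold change of −0.58 (edgeR adjusted p 3.34e-14). Its paralog Ndufa4l2, a known HIF1 target, had 1, 1 and 0 counts in WT and 1, 0 and 0 in KD. Ndufa4l2 thus had no more than 1 count in any library, and Cox4i2 no more than 3 except in WT replicate 1. Where a library has 0 counts, up to 3 are allowed, or 0.0773 to 0.0811 normalized CPM, which covers counting error only.

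Other tissue isoforms of complex IV had at most 40 counts in any library. Cox6a2, the heart and skeletal muscle form of subunit 6a, had 8, 11 and 10 counts in WT and 22, 21 and 40 in KD, and was called higher (at 1.5 ± 0.53 on the log2 scale, edgeR adjusted p 0.0114). The call was lost without WT replicate 1 (edgeR adjusted p 0.055) and without KD replicate 3 (edgeR adjusted p 0.101). Its common partner Cox6a1 was lower (−0.51), and Cox6a2 made up between 0.120% and 0.812% of the pair's counts. Cox7a1, another muscle form, had 1, 2 and 1 counts in WT and 5, 5 and 3 in KD, and Cox7b2, a testis form, had 0 in every WT library and 0, 4 and 11 in KD. Of 10 striated muscle markers, 4 had at most 3 counts in every library, among them Ckm, Myh7 and Myl2, and their summed level was 13.7 to 14.7 normalized CPM in WT and 13.7 to 16.4 in KD, most of it from Tnnt2. Myh6 (0 counts in WT and 11, 8 and 14 in KD) and Mb (23, 23 and 36 in WT and 48, 36 and 46 in KD, not past the test) were above WT in every KD library, as was Cox6a2. Testis markers summed to at most 0.132 in any library, and 9 listed pericyte markers, cells in which Cox4i2 and Ndufa4l2 are known, to 4.68 to 5.2 in WT and 5.84 to 7.29 in KD. Within these pericyte markers 3 were above WT in every KD library, namely Mcam (2.55 to 4.37 normalized CPM on average), the muscle and pericyte gene Des (1, 0 and 0 counts in WT, 10, 13 and 14 in KD) and Vtn (0 in WT, 1, 8 and 4 in KD), while Rgs5 (26, 31 and 10 counts in WT, 3, 8 and 8 in KD) and Pdgfrb were lower in every one. Their part in these few counts was not tested.

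The balance of isoforms within a library does not depend on the scaling. For 7 of the 10 isoform pairs considered, the log2 ratio of counts was compared by a two-sided exact permutation test, in which 3 libraries against 3 cannot give a p under 0.1. The c-ring of ATP synthase is encoded by 3 genes for the same mature protein, and the ratio of Atp5g1 to Atp5g3 went from −2.55 ± 0.12 to −2.99 ± 0.08, while that of Atp5g2 to Atp5g3 went from −1.23 ± 0.03 to −1.13 ± 0.05 (SD, n = 3 libraries each, exact p = 0.1 and adjusted p = 0.117 over the 7 pairs for both). Atp5g1 therefore took a smaller share of the 3 c-ring genes in every KD library. The ratio of Cox7a2l to Cox7a2 went from 0.68 ± 0.07 to 0.86 ± 0.06 with the same p-values. None of these differences could pass the threshold in this design.

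Complex V combines the F1 head, which makes ATP, with a membrane sector and a peripheral stalk that holds the head still. Its median log2 fold change was −0.39, with 13 of 17 genes lower (76.5%) and 1 higher (5.88%), against a background of 36.7% each way. Atp5b, the catalytic beta subunit of F1, was at 1128, 1196 and 1185 normalized CPM in WT and at 1116, 1110 and 1145 in KD, with overlapping groups (−0.06, edgeR adjusted p 0.082). Atp5c1, the gamma subunit that forms the rotor shaft, was at 359.4, 391.1 and 386.8 in WT and at 247.7, 252.2 and 250.8 in KD, a log2 fold change of −0.60 (edgeR adjusted p 6.94e-17). Atp5a1, whose subunits alternate with those of Atp5b in the ring of the head, was lower at −0.13, and differences between these genes were not tested. Atp5e, the epsilon subunit, went from 62.2 ± 1.97 to 69.1 ± 2.92 (0.15, edgeR adjusted p 0.00794). It did not pass with upper quartile scaling (edgeR adjusted p 0.0515) or without KD replicate 1 (edgeR adjusted p 0.0581).

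All 4 peripheral stalk genes (Atp5pb, Atp5h, Atp5j and Atp5o) were lower, with a median of −0.46. So were all 5 small membrane subunits, with a median of −0.85 (background 36.7% lower). Atp5k, subunit e, which takes part in joining ATP synthase into dimers, was at 53.4, 57.5 and 62.3 normalized CPM in WT and at 25.6, 23.2 and 23.4 in KD. Its highest KD value was less than its lowest WT value by a wide margin, with a log2 fold change of −1.26 ± 0.066 (SE, edgeR adjusted p 2.58e-18). Atp5md, which encodes DAPIT, fell from 86.1 ± 1.90 to 46.3 ± 2.41, at −0.89, and Atp5l, subunit g, fell by 0.85 on the log2 scale. Among the c-ring genes, Atp5g1 was lower (−0.48), while Atp5g2 (0.07) and Atp5g3 (−0.03) did not pass.

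**Figure D3:**
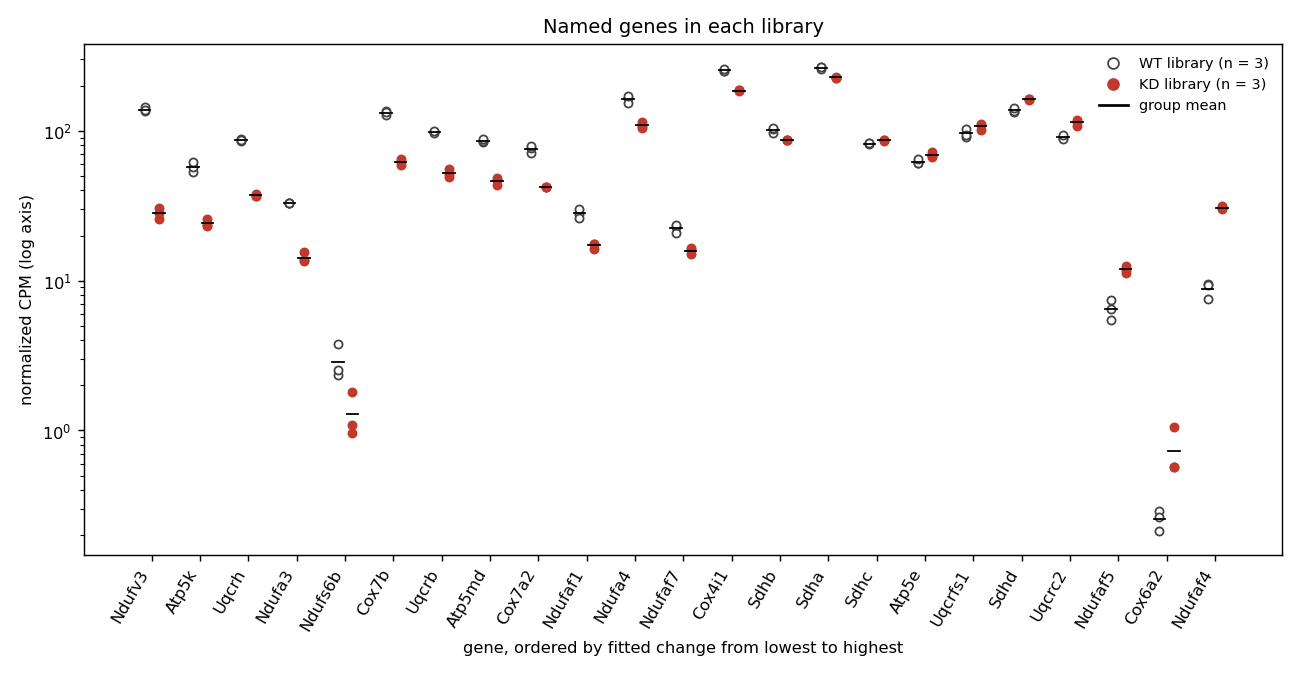
Normalized CPM (log axis) of the named genes in each WT library (open circles) and KD library (filled circles), with the group mean as a bar, ordered from the lowest to the highest fitted change. Levels of different genes are not corrected for length. Ndufv3 falls from about 138.6 to 28.1 and Ndufaf4 rises from 8.80 to 30.6.

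Pooled over the complexes, the split between core and accessory subunits held in counts. Among 55 accessory subunits, edgeR placed 49 lower (89.1%) and 0 higher, with a median log2 fold change of −0.58. The number higher was also 0 at an unadjusted p under 0.05 and with DESeq2, and it was 1 (Ndufb2) without KD replicate 2. Of 23 core subunits, 9 were lower (39.1%) and 5 were higher, with a median of −0.03. The background of 36.7% lower and 36.7% higher lies close to the share of core subunits that were lower and far below that of the accessory subunits. All KD libraries lay below all WT libraries for 49 of 55 accessory and 9 of 23 core subunits, against 37.8% of all genes tested. The c-ring genes are counted as core here, and with them counted as accessory the numbers lower were 50 of 58 and 8 of 20. The 4 peripheral stalk genes, all of them lower, are counted as accessory, and counts with them as core were not made. With Uqcrc1 and Uqcrc2 counted as accessory, 49 of 57 accessory subunits were lower and 1 (Uqcrc2) was higher, and 9 of 21 core subunits were lower and 4 higher. No test of the difference between the classes was made, because members of a complex are not independent and the classes were set with earlier results known.

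**Figure D4:**
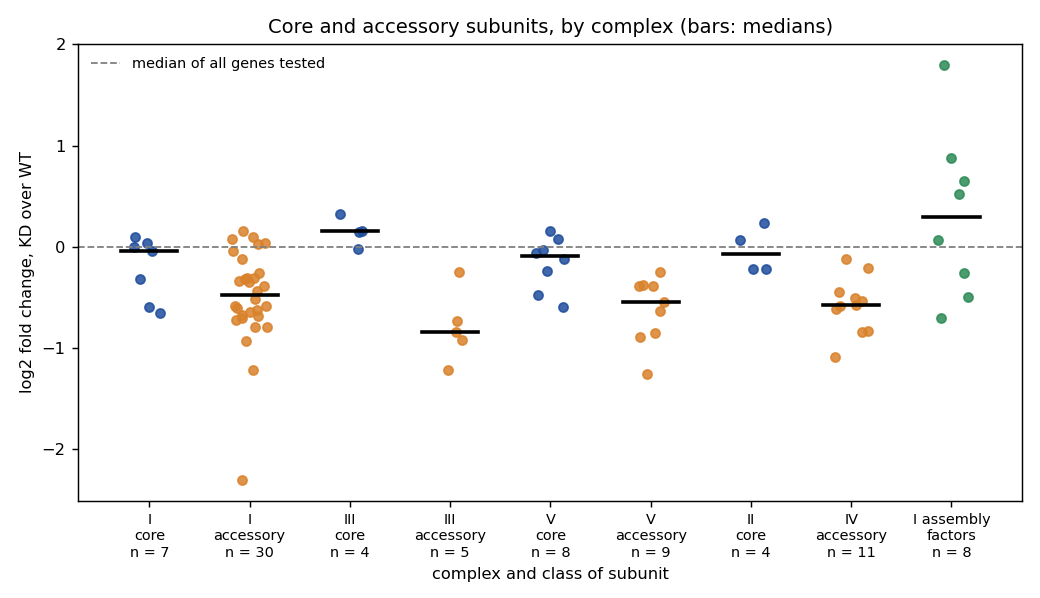
Log2 fold change (KD over WT, y axis) of each tested gene by complex and class of subunit, with bars for the medians and a dashed line for the median of all genes (−0.01). The medians of core subunits lie close to the line, 3 of 7 core subunits of complex I lie well below it, and accessory subunits lie mostly below it.

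Accessory subunits are also short proteins, and short genes were lower in general. The coding sequence of the human gene of the same name had a median of 336 bp for accessory subunits, 822 bp for core subunits and 1407 bp for all genes, with a length found for 87 of the 90 genes tested. Among other genes under 400 bp, 55.6% were lower, or 53.8% without cytosolic ribosomal proteins. Of the 34 accessory subunits in that range, 31 were lower (91.2%). Between 400 and 600 bp, 40.3% of other genes without cytosolic ribosomal proteins were lower, against 13 of 15 accessory subunits and 2 of 6 core subunits. Between 600 and 1000 bp these were 34.8%, 2 of 2 and 4 of 8, and between 1000 and 2000 bp they were 34.1%, 2 of 3 and 3 of 7. Across genes, the correlation of the log2 fold change with log2 coding length was r = 0.196 over the 87 genes and r = 0.038 over 11028 genes, given as a description since genes of a complex and of a library are not independent. The only core subunit under 400 bp, Atp5e, was higher. The part that length, or the way short transcripts are captured in a library, had in the decrease was not tested.

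**Figure D5:**
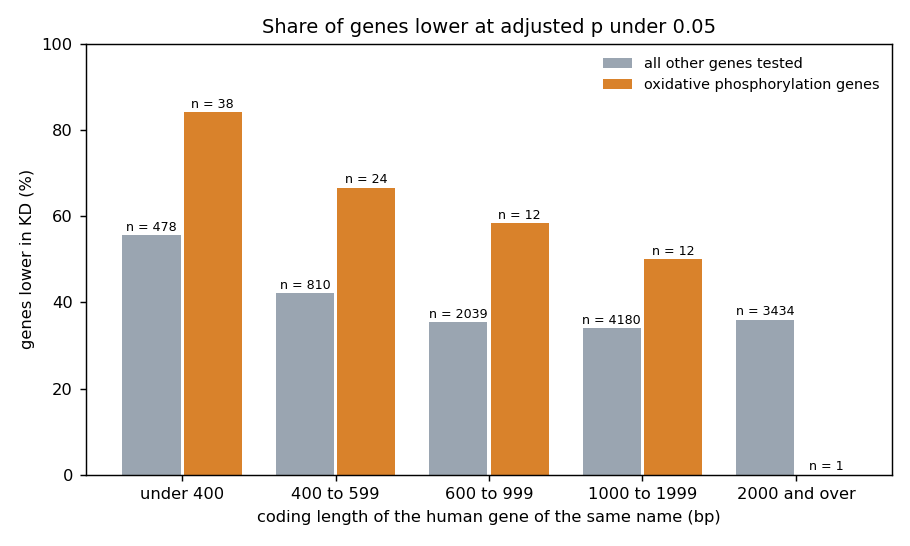
Share of genes lower in KD past the test (y axis, %) by coding length of the human gene of the same name (x axis, bp), for oxidative phosphorylation genes and all other genes, with the number of genes above each bar. The share is 55.6% for other genes under 400 bp and 36.0% for those of 2000 bp and over.

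The 13 subunits encoded in mitochondrial DNA, among them the catalytic core of complex IV, were mixed. They took between 1.20% and 1.41% of counts in the WT libraries and between 1.28% and 1.34% in the KD libraries, with overlap. Of 12 tested, 3 were lower (25.0%) and 1 was higher (8.33%), both under the background of 36.7% each way. The median log2 fold change was −0.04. The largest change was that of ND6, a membrane-arm subunit of complex I and the only one of the 13 encoded on the light strand. It was at 109.5, 156.8 and 166.1 normalized CPM in WT and at 18.25, 16.21 and 18.04 in KD. All KD values were far below all WT values, with a log2 fold change of −3.04 (SE 0.092, edgeR adjusted p 3.36e-25), a larger decrease than that of any of the 90 genes tested above. Over the 14 settings its value lay between −3.21 and −2.93. The strand setting of the counts is not given, so reads of ND6 and of transcripts opposite to it cannot be told apart. COX2, which holds the copper site that takes electrons from cytochrome c, was lower at −0.43, and ATP6, the proton channel subunit of ATP synthase, at −0.61 with overlapping groups. ND5, another membrane-arm subunit of complex I, was higher (0.15, edgeR adjusted p 0.00642) with overlapping groups, and its call was lost with DESeq2 and without WT replicate 1 or KD replicate 2. WT replicate 1 had the lowest values of the WT group for ND1, ND2, ND4, ND5, ND6, CYTB, COX1, COX2, COX3 and ATP6. Without this library 7 of the 12 genes were lower. Counts were uneven among the 13 genes, from 284189 to 314781 per library for COX1 down to 6 to 22 for ND3, which was not tested.

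Gene groups outside the symbol rule gave the following counts, and differences from the oxidative phosphorylation genes were not tested. The background is again 36.7% lower and 36.7% higher. Cytosolic ribosomal protein genes, which are short, had 77 of 86 lower (89.5%) and 2 higher (2.33%), with a median of −0.50. Mitochondrial ribosomal protein genes, which translate the subunits encoded in mitochondrial DNA, had 35 of 78 lower (44.9%) and 26 higher (33.3%), with a median of −0.07. Of 45 tested assembly factors outside the symbol rule, 19 were lower (42.2%) and 18 were higher (40%), near the background, with a median of −0.04. Higd1a, a small inner-membrane protein known to be induced in hypoxia, fell from 199.9 ± 12.6 to 51.4 ± 3.37 normalized CPM, a log2 fold change of −1.96 (edgeR adjusted p 1.23e-27). Pet100, a complex IV assembly factor, fell from 16.1 ± 1.28 to 4.98 ± 0.49 (−1.69). Cox10, which acts in the synthesis of heme A for complex IV, rose from 12.6 ± 1.32 to 33.3 ± 2.22 (1.40).

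In the list for coenzyme Q synthesis and cytochrome c, 8 of 15 tested genes were higher (53.3%, background 36.7%) and 2 lower (13.3%, background 36.7%), with a median of 0.15. Cycs, cytochrome c, which connects complexes III and IV, rose from 75.0 ± 2.88 to 91.3 ± 4.07 normalized CPM (0.28). Among regulators of respiratory gene expression, 11 of 20 tested genes were higher (55%) and 3 lower (15%), with a median of 0.21. Ppargc1b, a PGC-1 coactivator, was at 4.35, 3.68 and 2.44 in WT and at 14.7, 15.6 and 17.6 in KD, a log2 fold change of 2.20 (edgeR adjusted p 1.69e-15). Pprc1, a coactivator of the same family, rose from 80.1 ± 3.02 to 178.6 ± 6.06 (1.16). Epas1, which encodes HIF2 alpha, had 0, 0 and 3 counts in WT and lay between 1.55 and 2.20 normalized CPM in KD. Hif1a transcripts were higher as well (0.40), and Lonp1, the matrix protease that is known to remodel complex IV in hypoxia, fell by 0.95 on the log2 scale.

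Because the study follows HIF1, promoters of the human genes of the same name were searched for the core of the HIF response element. A promoter of 300 bases (250 before to 50 after the start, RefSeq, GRCh38.p14) was found for 76 of the 95 genes. The letters ACGTG or GCGTG, on either strand, were in 46 of the 76 (60.5%), against 55.9% of 15842 promoters of protein-coding genes, so this short motif is common everywhere. They were in 31 of 53 promoters of genes that were lower, 6 of 8 of genes that were higher and 8 of 13 of genes that did not pass. The E-box CACGTG, which contains ACGTG on both strands, was in 8 of 76 (10.5%, background 8.88%). The palindromic NRF1 consensus was in 5 (6.58%, background 1.75%), the ETS core CGGAAG in 29 (38.2%, background 25.6%) and the YY1 core ATGGCG in 25 (32.9%, background 14.3%). By class, the HIF core was in 14 of 17 core and 25 of 48 accessory promoters, the YY1 core in 10 and 13 and the ETS core in 7 and 20. A match is a description of the letters and not of binding.

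The promoters of the genes with the largest change in complex I, complex V and the assembly factors are shown for what they share and do not share, in lower case with the letters ACGTG or GCGTG, or their reverse complements, in capitals. That of NDUFV3 (chr21:42893059-42893358, plus strand) has 3 matches, that of ATP5ME, the human name of Atp5k (chr4:674227-674526, minus strand), has 5, of which 2 overlap in an E-box, and that of NDUFAF4 (chr6:96897842-96898141, minus strand) has 1. The promoters of other named genes were searched as well, and those of UQCRH and COX4I1, which were lower, have 0 matches, and those of UQCRC2 and NDUFAF5, which were higher, have 1 and 5.
NDUFV3: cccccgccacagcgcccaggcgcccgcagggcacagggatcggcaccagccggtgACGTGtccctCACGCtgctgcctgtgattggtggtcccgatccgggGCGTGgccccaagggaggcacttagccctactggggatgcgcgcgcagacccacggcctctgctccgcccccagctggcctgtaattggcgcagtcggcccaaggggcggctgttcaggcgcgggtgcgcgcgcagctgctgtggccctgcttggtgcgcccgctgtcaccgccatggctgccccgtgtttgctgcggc
ATP5ME: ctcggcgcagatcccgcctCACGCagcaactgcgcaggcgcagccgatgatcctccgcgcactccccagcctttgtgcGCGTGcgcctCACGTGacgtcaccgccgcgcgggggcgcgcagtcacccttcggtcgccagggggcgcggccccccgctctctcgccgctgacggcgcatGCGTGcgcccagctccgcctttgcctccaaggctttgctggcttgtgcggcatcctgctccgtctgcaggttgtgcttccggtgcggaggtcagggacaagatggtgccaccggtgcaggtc
NDUFAF4: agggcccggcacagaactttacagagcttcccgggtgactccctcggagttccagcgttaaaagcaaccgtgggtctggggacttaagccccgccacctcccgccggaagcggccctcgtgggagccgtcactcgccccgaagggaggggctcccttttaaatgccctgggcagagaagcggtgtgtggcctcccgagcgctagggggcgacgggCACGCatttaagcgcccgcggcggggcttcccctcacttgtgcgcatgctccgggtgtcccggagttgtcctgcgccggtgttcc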

How the data were processed

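RNA-Seq counts of 3 KD and 3 WT libraries were analysed. The authors deposited raw counts of reads per gene symbol, in 1 table with 22989 rows. The submitters' processing notes name HISAT2, featureCounts, DESeq2 and hg38, while the study's methods name HISAT2 with default settings and hg19. The annotation, the strand setting and the treatment of reads shared with pseudogenes are not given in the sources used here. Library kits also differ between the methods and the labels. Columns were assigned by the names in the labels, and 0 columns of values were left unused. No gene name was blank.

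The test was that of edgeR 4.0.16 under R 4.3.3 (filterByExpr with a minimum count of 10 and a minimum total of 15, TMM, quasi-likelihood test, Benjamini-Hochberg adjustment over 13497 genes, group only). Calls need an adjusted p under 0.05 and, where stated, more than a 2-fold difference, as in the study's methods. Normalized CPM use TMM-scaled totals (factors 0.9901 to 1.0143), and standard errors are the log2 fold change over the root of F. The biological coefficient of variation was 5.21%. Within a group, chi-square over its degrees of freedom was 3.89 to 7.60 for pairs of libraries, above sampling noise, so none was a copy. Isoform ratios used a prior count of 0.5. The scripts were tested on simulated data.

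Members, gene lists and classes of subunit were chosen with earlier results of these data known, and the c-ring genes were moved to the core class after their values were seen. Genes were named if they belong to the Cox4i and Ndufa4 pairs, were called, are Sdha to Sdhd, or had up to the 2 largest changes each way per complex with no library of the higher group under 100 counts. From other lists the rule named called genes and those encoded in mitochondrial DNA. Any other gene (Cycs, Hif1a and Lonp1 among them) was chosen after its values were seen. The names of the mitochondrial genes in the table were matched after the other results were known. Alternatives were scaling by library size, by the upper quartile or by DESeq2's size factors, DESeq2 1.42.0 as the test, no filter or a stricter one (10 counts in each sample), the replicate number as a block, a fold change over 1.5, and each library left out in turn. Coding lengths came from the GENCODE annotation on GRCh37 and promoters from RefSeq on GRCh38.p14.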

Additional observations from a re-analysis of the deposited data

How the results depend on the processing

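The numbers of genes lower and higher stayed between 60 and 65 and between 9 and 11 over all alternatives, and the median log2 fold change between −0.43 and −0.36. Of the 73 genes past the threshold, 5 (Atp5e, Cox6a2, Cox7c, Ndufab1 and Ndufaf2) lost the call under some alternative and 0 changed sign. With a fold change over 1.5, 31 genes were called lower and 4 higher, as that threshold admits more genes. No share of all genes at that threshold is given here, so these counts are not read against a background. With each library left out, 5 to 6 were called lower and 1 to 2 higher. With the stricter filter (10 counts in each sample) 1 was called higher, and 0 genes of complex IV were higher, since Cox6a2 was not tested. With no low-count filter and with DESeq2, 2 genes of complex IV were higher. With upper quartile scaling 0 genes of complex V were higher (Atp5e), and the medians were −0.11 for complex II, −0.62 for complex IV, 0.26 for the complex I assembly factors and −0.084 for the other assembly factors. With library size only, they were −0.092 for complex II and −0.60 for complex IV. The median of all genes moved by −0.04 with upper quartile scaling, 0.01 with DESeq2's size factors and −0.02 with library size only. The median of the other assembly factors was −0.012 with no filter and −0.004 with DESeq2, and that of coenzyme Q synthesis and cytochrome c was 0.22 with the stricter filter. With each library left out, the number higher ranged from 0 to 1 for complexes I, IV and V and for accessory subunits, and medians ranged from −0.57 to −0.55 for complex IV, from 0.253 to 0.327 for the complex I assembly factors, from −0.046 to −0.011 for the other assembly factors and from 0.16 to 0.23 for the regulators. The counts for core and accessory subunits, alternatives added after the data were seen, stayed within 8 to 11 and 47 to 50 lower, with 1 accessory subunit higher where Uqcrc1 and Uqcrc2 are counted as accessory. With a prior count of 2, the log2 ratio of Cox7a1 to Cox7a2 rose by 1.76 in KD, against 2.25 with 0.5, on few counts. Of the genes encoded in mitochondrial DNA, 5 were lower with upper quartile scaling, 0 were higher with DESeq2, and with each library left out 3 to 7 were lower, 0 to 3 were higher and the median ranged from −0.126 to 0.022, with the sign changed without WT replicate 2 (0.014), WT replicate 3 (0.010) or KD replicate 1. Leaving these genes out of the library total changed the difference in share to −0.206 points. Where no value above shows the cause, the cause was not tested. Same-numbered libraries did not deviate together (correlations 0.042, −0.015 and −0.021), and with the replicate number as a block 63 genes were lower and 10 higher with a median of −0.38. Depth limits the tissue isoforms, which had under 20 counts in most libraries.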
